A study of Mus musculus with 9 samples.

Results

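Small matrix proteoglycans and one of their partners were followed here in mouse bladder: Dcn, Lum, Bgn, Ogn, Fmod, Prelp and Dpt, 7 genes of the 17097 that the array's annotation names unambiguously. They were taken by symbol. Where a gene had several probe sets, the one with the greatest mean level across the 9 arrays stands for it. All 7 were measured, and all 7 were among the 11969 genes left after the lowest 30% by mean level were set aside. Values are log2 intensities, so a difference of 1 is a doubling.

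Small leucine-rich proteoglycans are secreted proteins with a curved repeat domain that lies along collagen fibrils, and most carry chondroitin, dermatan or keratan sulfate chains. Fibroblasts of the connective tissue make them, and in hollow organs they sit between the muscle bundles and under the epithelium. Decorin (Dcn) and biglycan (Bgn) form one class, with chondroitin or dermatan chains. Decorin limits fibril thickness and binds TGF-beta, and free biglycan is a ligand of the innate receptors TLR2 and TLR4. Lumican (Lum), fibromodulin (Fmod) and prolargin (Prelp) form another class. Lumican and fibromodulin compete for a site on collagen, and prolargin binds heparan sulfate through its basic end. Osteoglycin (Ogn) belongs to a further class. Dermatopontin (Dpt) has no leucine-rich repeats and is not a proteoglycan. It is a small matrix protein that binds decorin, so the name of the group fits 6 of the 7 genes.

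All mice were female C57BL/6J, and the labels give no age. Tumour bladders had been coated with poly-L-lysine and then filled with MB49 cells, a mouse bladder carcinoma line, on day 0. Sham-treated tumour mice received PBS, and treated tumour mice received alpha1-oleate, a peptide-oleate complex, at 1.7, 8.5 or 17 mM into the bladder in 5 instillations from day 3 to day 11. These bladders were taken on day 12. Healthy mice received PBS, or 17 mM alpha1-oleate followed by sampling at 24 h or 7 d. The labels do not give the number of instillations in healthy mice. The 3 dosed tumours belong to experiment 1 (5 arrays) and the 2 dosed healthy bladders to experiment 2 (4 arrays). Each experiment has its own healthy PBS and its own sham tumour array, so these groups have 2 arrays and the others 1. The labels do not say whether arrays are separate animals. The p-values therefore measure only the spread between these samples, which may be technical, and single arrays are assumed to vary like the PBS groups. The dose slope, given below, is an exception. The bladder is measured whole, so fewer cells of a type and less RNA per cell cannot be told apart.

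Markers of bladder tissue were present on all arrays. The mean of 10 urothelial markers was 11.00 and 10.57 log2 on the healthy PBS arrays against 8.03 and 7.35 on tumour PBS, and that of 8 smooth muscle markers was 10.69 and 10.60 against 9.19 and 8.66. The array labelled healthy, 24 h, was mixed. Its urothelial mean (9.99) and smooth muscle mean (10.84) lay nearer to healthy PBS than to tumour PBS of the same experiment. Its proliferation and leukocyte means went against the label of the array. Its mean of 4 proliferation markers was 7.07, against 3.47 on healthy PBS and 9.17 on tumour PBS of the same experiment, and its leukocyte mean was 6.82 against 4.67 and 7.80. All measured markers of both lists were above the filter. The 7 d array read 3.90 and 5.05 on these lists. This array is the only one of its group in the fit, so it carries no weight in the comparisons that do not name it.

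Sham-treated tumour bladders held less transcript of 5 of the 7 genes than healthy bladders, and 2, Bgn and Prelp, did not pass the test. Of all genes tested 57.2% were called in this comparison, 28.6% lower and 28.6% higher. The median difference was -1.34 for the 7 genes and close to 0 (-0.00) for all genes. Osteoglycin fell furthest. Its level was 9.65 (experiment 1) and 9.26 (experiment 2) on the healthy arrays and 7.22 and 6.30 on the sham tumours. The tumour difference was -2.43 and -2.96 in the 2 experiments. The fitted difference was -2.70 (SE 0.17, 95% limits -3.22 to -2.17, limma adjusted p = 0.00337), a 6.48-fold decrease. Dermatopontin read 9.94 and 9.43 in healthy bladder and 7.99 and 6.74 in sham tumour. It differed by -1.95 and -2.69 within the experiments, and the fitted difference was -2.32 (SE 0.22, limma adjusted p = 0.00601).

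Decorin read 11.85 and 11.48 in healthy bladder and 10.41 and 9.87 in sham tumour. The decrease was nearly the same in the 2 experiments (-1.44 and -1.61), with a fitted difference of -1.52 (SE 0.10, limma adjusted p = 0.00346). Lumican read 9.75 and 9.51 against 8.81 and 7.79. Here the experiments differed more (-0.94 and -1.72), and the fitted difference of -1.33 had an SE of 0.23 (limma adjusted p = 0.0201). Fibromodulin read 5.74 and 6.05 in healthy bladder and 4.21 and 4.89 in sham tumour. Its level was low, with a mean over the 9 arrays of 5.19, above only 19.8% of the genes kept. Within the experiments it differed by -1.53 and -1.16, and the fitted difference was -1.34 (SE 0.13, limma adjusted p = 0.00647).

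Biglycan was at the same level in healthy and sham tumour bladder of experiment 1 (10.45 and 10.48) and slightly lower in the tumour of experiment 2 (9.92 and 9.60). Its difference of -0.14 (SE 0.13, limma adjusted p = 0.404) had 95% limits of -0.54 to 0.25, so a decrease as large as that of decorin lies outside them. Prolargin read 8.57 and 7.60 in healthy bladder and 8.78 and 8.33 in sham tumour. The tumour was the higher in each experiment (0.21 and 0.73), yet the fitted difference of 0.47 (SE 0.17, limma adjusted p = 0.096) did not pass. A second probe set for each of Bgn, Ogn and Prelp gave tumour differences of the same sign in both experiments (0.03 and -0.36 for Bgn, -2.41 and -2.71 for Ogn, 0.27 and 0.55 for Prelp).

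**Figure D1:**
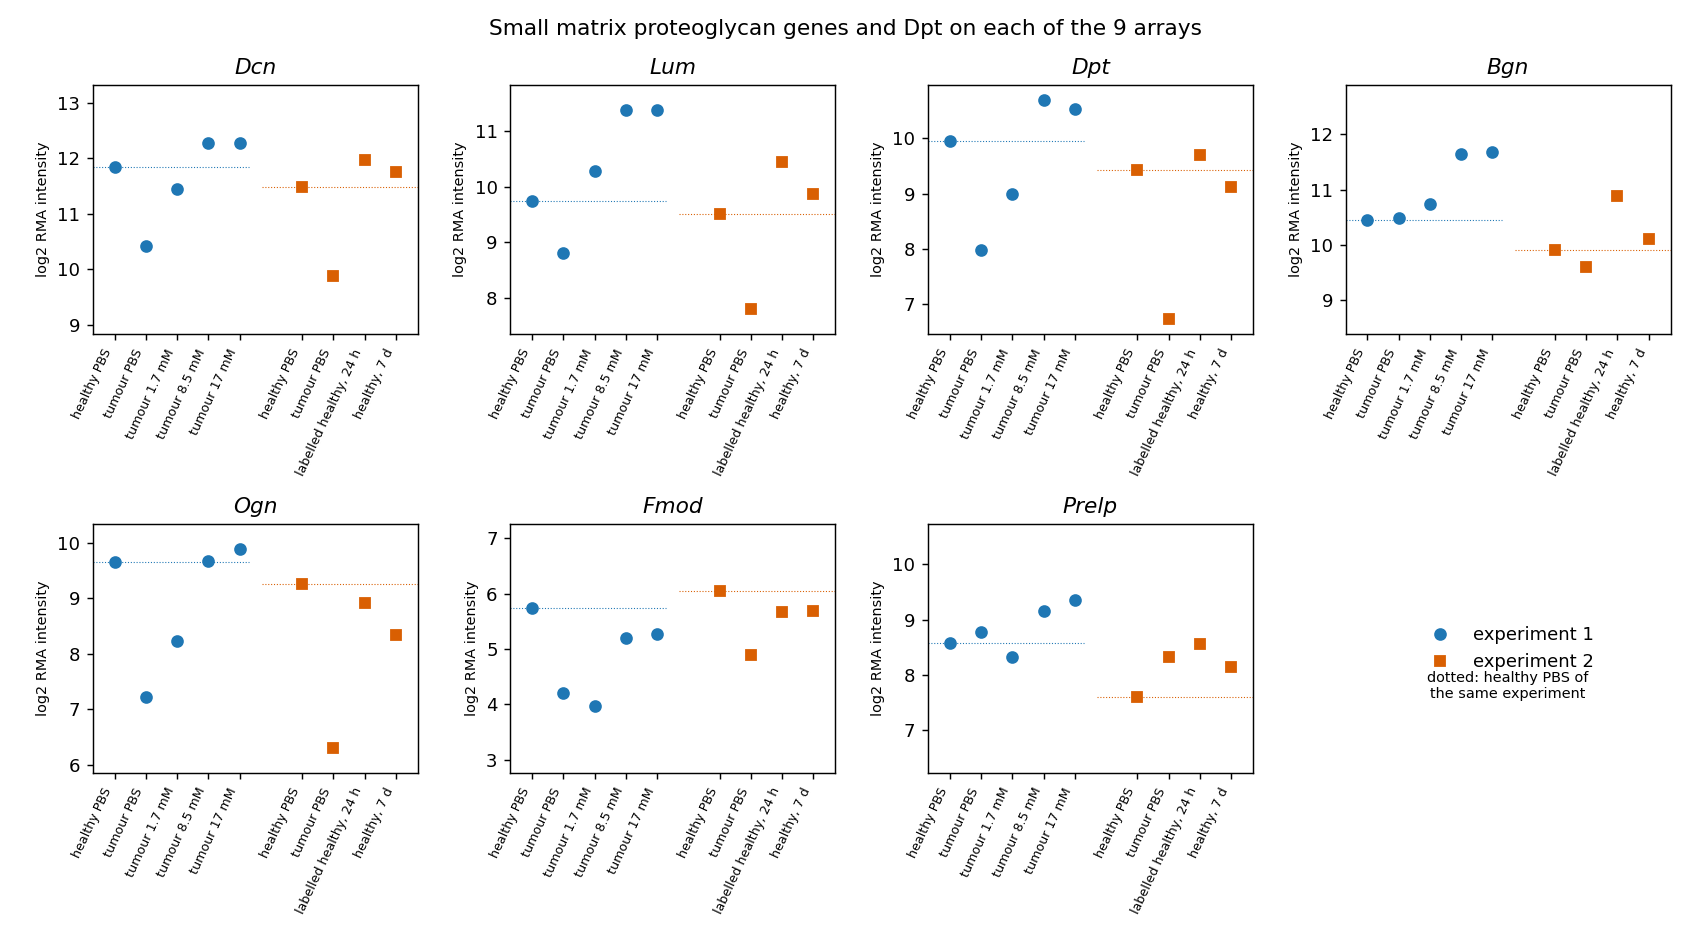
Log2 intensity (vertical axes, each spanning the same range) of the 7 genes on each of the 9 arrays, with experiment 1 as circles and experiment 2 as squares and the healthy PBS level of each experiment dotted. Ogn, Dpt, Dcn, Lum and Fmod drop from healthy PBS to tumour PBS in both experiments, and Bgn and Prelp do not. At 8.5 and 17 mM all genes but Fmod lie above the healthy level, Lum and Bgn by the most and Ogn by the least (0.03 and 0.25).

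Other genes of the family were few on this array. Of 11 further small leucine-rich proteoglycan genes 9 were measured and 3 lay above the filter. In sham tumours 2 of the 3 fell: opticin (Optc), best known from the eye, at -2.53 (SE 0.19, limma adjusted p = 0.00416), and podocan (Podn), at -0.71 (limma adjusted p = 0.0214). Asporin (Aspn), a decorin relative that binds TGF-beta, read 0.32 and did not pass (limma adjusted p = 0.0601). All 3 rose at 17 mM against sham tumour: Optc by 3.12, Podn by 1.24 and Aspn by 0.92 (limma adjusted p = 0.0175, 0.0284 and 0.0265). Optc, Prelp and Fmod are neighbours on mouse chromosome 1, with Prelp between the other two, so the member that did not fall lies between 2 genes that did. Dcn and Lum are neighbours on chromosome 10, followed by Kera and Epyc, which stayed below the filter. Ogn follows Ecm2, Aspn and Omd on chromosome 13, and of these Aspn alone passed the filter. Bgn, on chromosome X, has no relative from the lists among its 3 nearest protein-coding genes on either side, and the same holds for Dpt on chromosome 1.

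In tumour bladders treated with 17 mM alpha1-oleate, 6 of the 7 genes were higher than in sham tumours, a comparison in which 26.3% of all genes tested were called (15.7% rose and 10.6% fell). The median difference of the 7 was 1.91, against -0.05 over all genes. With the 2 experiments on 1 scale through their shared PBS groups, the 17 mM array is set against both sham tumours. Ogn stood at 9.90 at 17 mM, and the difference was 2.81 (SE 0.23, limma adjusted p = 0.0172). Lum stood at 11.39, level with the 8.5 mM array and above the others, with a difference of 2.78 (SE 0.31, limma adjusted p = 0.0217). Dpt stood at 10.53, a difference of 2.72 (SE 0.30, limma adjusted p = 0.0215). In the fit these 3 genes were raised about 7-fold (7.03-fold, 6.84-fold and 6.61-fold). Against the sham tumour of experiment 1 alone, the differences were smaller, at 2.68, 2.58 and 2.54. At 12.28, Dcn was 1.91 higher than sham (SE 0.13, limma adjusted p = 0.0159).

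Bgn rose as well, although it had not fallen in the tumour. It read 11.68 at 17 mM, 1.29 above sham (SE 0.17, 95% limits 0.76 to 1.82, limma adjusted p = 0.0274). Fmod read 5.27, a rise of 0.97 (SE 0.18, limma adjusted p = 0.0439), the weakest call: without the experiment block its adjusted p was 0.636, and with no filter on low values 0.0552. Prelp, at 9.36, was 0.45 higher than sham (SE 0.22, 95% limits -0.23 to 1.13, limma adjusted p = 0.225) and did not pass. Without the sham array of experiment 1 it read 0.06. The spread in these tests comes from the PBS arrays, so it does not include variation between treated bladders. Lum and Dpt read 3.36 and 3.28 when the sham array of experiment 1 was left out, a value without a test.

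At 8.5 mM the values were close to those at 17 mM. Here 15.6% of all genes were called (11.0% rose and 4.65% fell), and 5 of the 7 passed: Dpt at 2.88 (SE 0.30, limma adjusted p = 0.0293), Lum at 2.78, Ogn at 2.59, Dcn at 1.91 and Bgn at 1.26 (SE 0.17, limma adjusted p = 0.0378). Dpt reached 10.68, Lum 11.39, Ogn 9.68, Dcn 12.28 and Bgn 11.65 on this array. Against the sham tumour of experiment 1 alone, these 5 differed by 2.69, 2.58, 2.46, 1.87 and 1.17. Fmod, at 5.20, missed the threshold (0.90, SE 0.18, limma adjusted p = 0.0637), and Prelp, at 9.15, read 0.24 (SE 0.22, limma adjusted p = 0.499), or -0.15 without the sham array of experiment 1. Between the 8.5 and 17 mM arrays the 7 genes differed by -0.15 (Dpt) to 0.22 (Ogn), less than the spread of 2 single arrays for every one of them.

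At 1.7 mM limma called none of the 11969 genes (0.0%, 1595 at an unadjusted p under 0.05, smallest adjusted p 0.251, and 36 genes without the block), so none of the 7 passed. Lum read 10.28, which is 1.66 above sham (SE 0.31, limma adjusted p = 0.272), the largest difference of the 7 and the 41st highest of all genes. Dpt read 8.99 (difference 1.18), Ogn 8.23 (1.14) and Dcn 11.45 (1.08), each between sham and healthy bladder of the same experiment. Bgn, at 10.75, differed by 0.36. In contrast, Fmod (3.97) and Prelp (8.32) were the lowest of the experiment at this dose, at -0.33 (SE 0.18, limma adjusted p = 0.528) and -0.59 (SE 0.22, limma adjusted p = 0.416) against sham. For these 2 genes the lowest and the highest dose lay on opposite sides of the sham tumour of experiment 1 (-0.24 and 1.06 for Fmod, -0.46 and 0.58 for Prelp). The Fmod levels at 1.7 mM (3.97) and in that sham tumour (4.21) were near the filter on mean level (4.16), where small differences carry little weight.

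**Figure D2:**
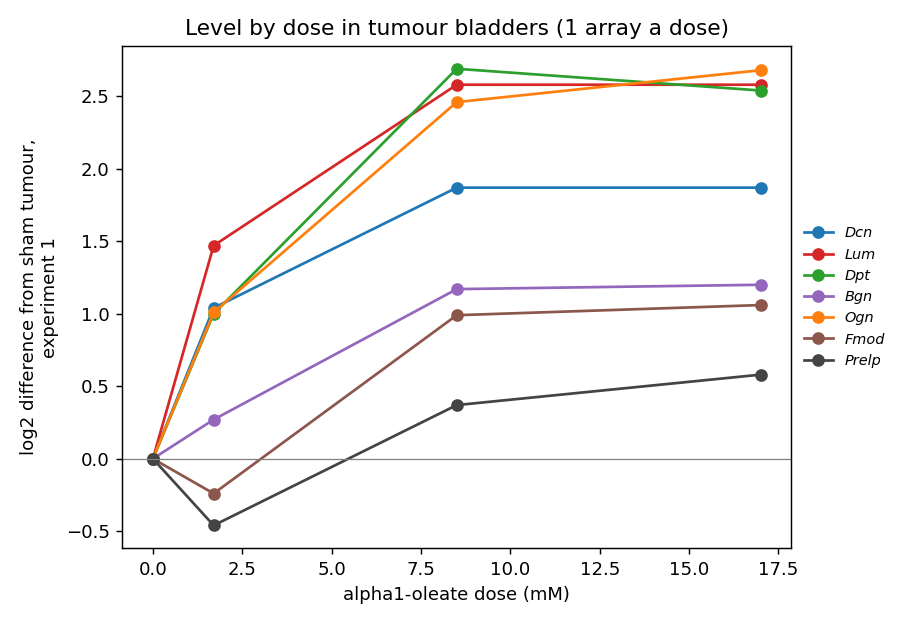
Log2 difference from the sham tumour of experiment 1 (vertical axis) against alpha1-oleate dose in mM (horizontal axis), 1 array per dose, 1 line per gene. Each line is nearly level between 8.5 and 17 mM, and at 1.7 mM Lum, Dcn, Ogn and Dpt are at or above 1 while Fmod and Prelp are below 0.

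A straight line over dose was also fitted. The slope was between 0.050 (Prelp) and 0.147 (Ogn) log2 per mM, all 7 positive and all 7 at an unadjusted p under 0.05. After limma's adjustment no gene of the 11969 passed (0.0%, 4880 at an unadjusted p under 0.05, smallest adjusted p 0.0591). Ogn had a slope of 0.147 (SE 0.035, limma adjusted p = 0.0631) and Bgn one of 0.072 (SE 0.018, limma adjusted p = 0.0673). With dose coded by rank, 4200 genes passed, and 5 of the 7 were among them. Leaving out the 17 mM array brought 3 of the 7 past the threshold (Dpt, Bgn and Ogn, 1384 genes in all) and leaving out the 8.5 mM array brought 2 (Bgn and Ogn, 1839 genes in all).

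Set against healthy rather than sham bladder, the genes at 17 mM took different positions, with 2.97% of all genes called and none of the 7 (3 at an unadjusted p under 0.05). Lum and Bgn stood highest above healthy, by 1.44 (SE 0.31, 95% limits 0.50 to 2.39, limma adjusted p = 0.0957) and 1.14 (SE 0.17, 95% limits 0.61 to 1.67, limma adjusted p = 0.07). With all arrays quantile-normalized together these 2 passed (limma adjusted p = 0.0293 and 0.0181). Lum also passed without the block (0.0273) and Bgn with a variance trend (0.0485). Ogn and Dpt, which had fallen furthest in the tumour, read 0.12 (SE 0.23, 95% limits -0.58 to 0.81) and 0.41 (SE 0.30, 95% limits -0.50 to 1.31). Fmod read -0.38 (SE 0.18, limma adjusted p = 0.262). Dcn read 0.39 and Prelp 0.92, neither of which passed. These positions depend on the healthy array of experiment 1: without it Lum read 0.86, Dpt -0.15, Ogn -0.28 and Fmod -0.10. In experiment 1 the order of levels from high to low was thus 8.5 and 17 mM, healthy, 1.7 mM, sham for Dcn and Dpt. For Lum the 1.7 mM array lay above healthy, by 0.53, and for Ogn the gaps from 17 to 8.5 mM (0.22) and from 8.5 mM to healthy (0.03) were within the spread of 2 single arrays (0.24). Bgn had sham and healthy bladder together at the bottom of the order, 0.03 apart, and Fmod had healthy bladder at the top. Prelp had the 17 and 8.5 mM arrays at the top, and its sham and healthy arrays, 0.21 apart, were within the spread.

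**Figure D3:**
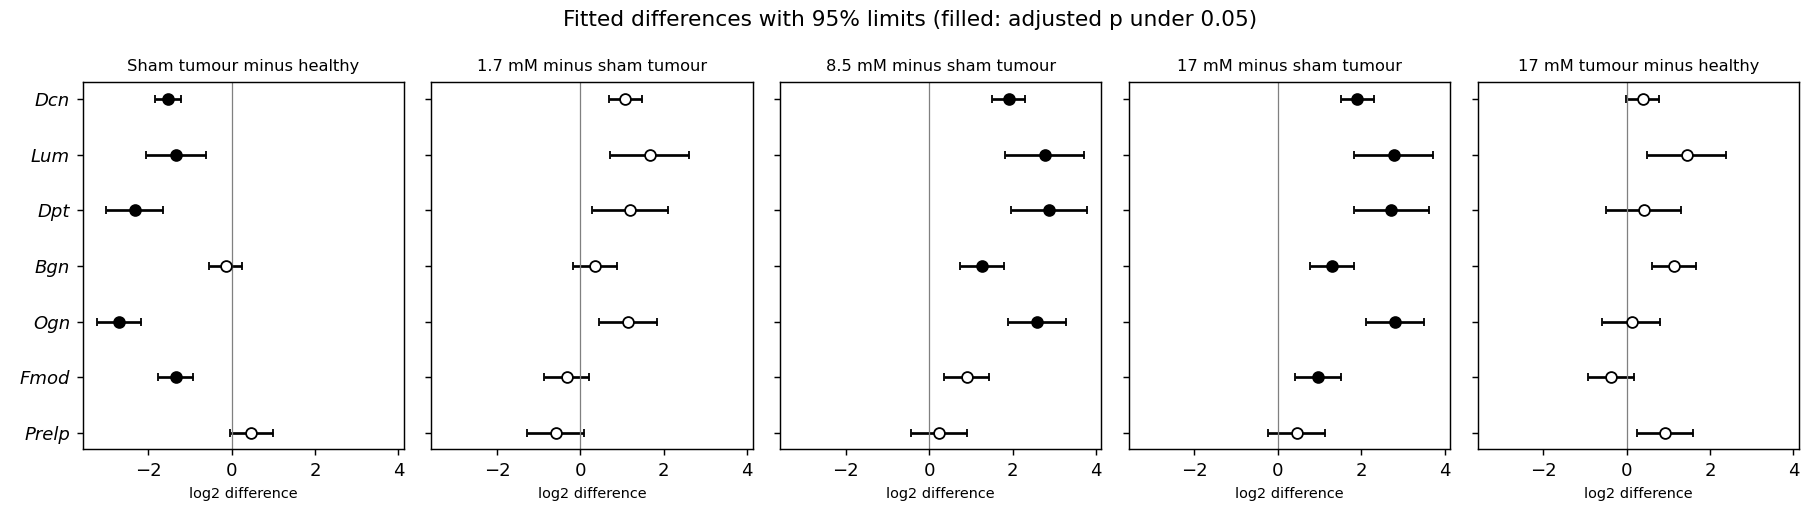
Fitted log2 differences (horizontal axes) of the 7 genes for sham tumour minus healthy, each dose minus sham tumour, and 17 mM tumour minus healthy, with 95% limits as bars and filled points where the adjusted p is under 0.05. From left to right, 5, 0, 5, 6 and 0 points are filled, and in the rightmost panel Lum, Bgn and Prelp have limits above 0.

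Set against the healthy PBS array of experiment 2 alone, healthy bladder 7 d after 17 mM differed by -0.92 (Ogn) to 0.54 (Prelp). With the probe sets used, only Dpt had a gap (0.31) within the spread of 2 single arrays (0.32). For Bgn the gap and the spread were both 0.19 after rounding. The second probe sets read 0.08 for Prelp, against 0.54, -0.69 for Ogn, against -0.92, and 0.21 for Bgn. The Prelp gap thus rests on the probe set used. None of the 11969 genes was called by limma (0.0%, 1096 at an unadjusted p under 0.05, and 15 genes without the block). The 7 genes ranged from -0.79 for Ogn (SE 0.23, limma adjusted p = 0.527) to 0.56 for Lum (SE 0.31, limma adjusted p = 0.618). Without the healthy PBS array of experiment 2, Ogn read -0.39, Lum 1.14, Prelp 0.02 and Dpt 0.43, against -0.12 for Dpt with it. Ogn read 8.34 at 7 d against 9.26 on the healthy PBS array beside it, and Dpt 9.12 against 9.43. Lum (9.87 against 9.51), Dcn (11.75 against 11.48), Bgn (10.11 against 9.92) and Prelp (8.14 against 7.60) were the higher at 7 d, and Fmod (5.68 against 6.05) the lower. Of the collagen list none passed on the same array (median 0.91), and its members did not move alike. Col1a1, a chain of type I collagen, stood at 10.54 against 7.69 (fitted difference 2.61, SE 0.37, limma adjusted p = 0.488), and Col5a2 at 9.39 against 7.97, while Col14a1 stood at 8.29 against 8.70. Aspn, at 5.33 against 3.84, had a fitted difference of 1.51 (SE 0.12, limma adjusted p = 0.487).

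On the array labelled healthy, 24 h, all members but Prelp lay nearer to healthy PBS than to the sham tumour of the experiment. Against healthy PBS no gene was called by limma (0.0%, 2503 at an unadjusted p under 0.05, 126 genes without the block). Lum read 10.45 (difference 1.14, SE 0.31, limma adjusted p = 0.201), Bgn 10.89 (1.06, SE 0.17, limma adjusted p = 0.137) and Prelp 8.56 (0.83). Dcn, at 11.97, and Dpt, at 9.69, differed by 0.53 and 0.45, and Ogn (8.91) and Fmod (5.67) by -0.22 and -0.47. Against the healthy PBS array of experiment 2 alone, Ogn differed by -0.35, and by -0.03 with its second probe set. Without the healthy PBS array of experiment 2, Lum read 1.72, Dpt 1.0, Prelp 0.44 and Ogn 0.18. Against sham tumour, where 30.6% of all genes were called (17.0% rose), 6 of the 7 were higher. Dpt led with 2.76 (SE 0.30, limma adjusted p = 0.0177), followed by Ogn at 2.48, Lum at 2.46 and Dcn at 2.06. Bgn, at 1.20 (limma adjusted p = 0.0268), and Fmod, at 0.87 (limma adjusted p = 0.0472), did not pass without the block (0.389 and 0.193). Prelp read 0.36 and did not pass. The comparisons with healthy PBS and with sham tumour use the same 24 h array. Its proliferation and leukocyte markers were higher than in healthy PBS (medians 3.68 and 2.58) and lower than in sham tumour (medians -2.12 and -0.81). Their part in the result was not tested.

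The 7 genes did not share 1 profile. Over the 9 arrays, with each value centred on the mean of its experiment, Dcn, Dpt and Ogn had pairwise Pearson correlations of 0.94 to 0.98. Lum was closest to Dcn (0.94) and Dpt (0.92) and also to Bgn (0.90), while Fmod was closest to Ogn (0.87). Prelp correlated at 0.70 with Bgn and at 0.10 to 0.38 with the other members. These are descriptions over 9 arrays that share their experiments and PBS groups. Measured against the mean profile of the 7, Dpt correlated at 0.989, Dcn at 0.976, Ogn at 0.949, Lum at 0.942, Bgn at 0.817, Fmod at 0.765 and Prelp at 0.355. Each gene is part of that mean, and genes with wide changes weigh most in it. Among the 11969 genes kept, these values ranked 36, 138, 345, 396, 1464, 1961 and 4374. Many genes outside the group were thus closer to the profile than its members.

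**Figure D4:**
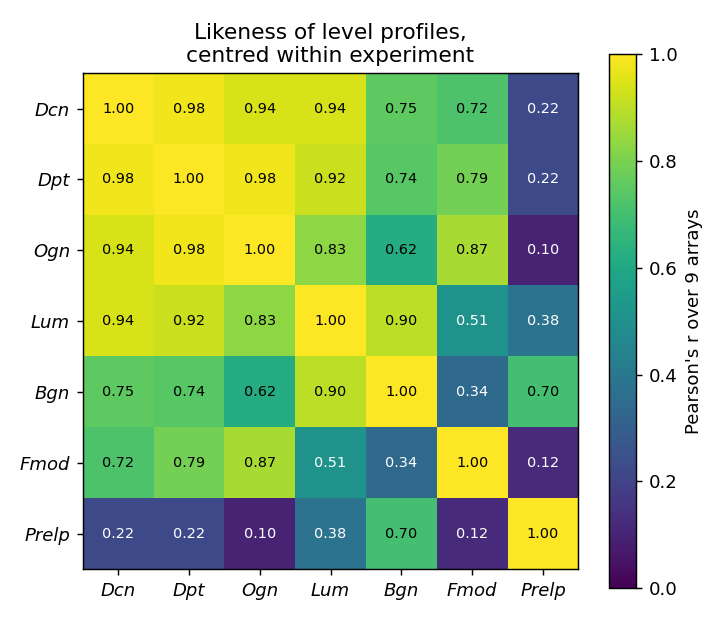
Pearson correlation between the level profiles of the 7 genes over 9 arrays, centred within experiment (colour scale from 0 to 1, value printed in each cell). Dcn, Dpt, Ogn and Lum form a block with values of 0.83 to 0.98, and the Prelp row is lowest except against Bgn (0.70).

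Among all other genes, 6 came closest to the mean profile: Col14a1 (0.996), Nhsl2 (0.996), Tenm3 (0.995), Clmp (0.995), 4930533K18Rik (0.995) and Zfp521 (0.994). Col14a1 encodes a collagen that lies on the surface of fibrils, as decorin does. It read 9.22 and 8.70 in healthy bladder, 7.45 and 6.35 in sham tumour and 10.19 at 17 mM. Taken singly, Dcn was most like Scara5 (0.992), Lum like Tmem119 (0.998), Dpt like Zfp503 (0.998) and Ogn like Mpdz (0.998). Bgn was most like Tceal8 (0.989), Fmod like Lefty1 (0.989) and Prelp like Phlda1 (0.948).

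The promoters of Ogn and Dpt, the members that fell furthest in the tumour, are shown beside that of Bgn as examples of base composition among the 7 genes. Whether base composition goes with the tumour difference was not tested. Promoter sequences from RefSeq (GRCm38.p6) were matched by symbol for 5 of the 7 genes, and the 250 bases before the annotated start are printed, 5′ to 3′, all on the plus strand. Capitals mark TATAAA or GGGCGG on either strand.
Ogn, chr13:49607765-49608014: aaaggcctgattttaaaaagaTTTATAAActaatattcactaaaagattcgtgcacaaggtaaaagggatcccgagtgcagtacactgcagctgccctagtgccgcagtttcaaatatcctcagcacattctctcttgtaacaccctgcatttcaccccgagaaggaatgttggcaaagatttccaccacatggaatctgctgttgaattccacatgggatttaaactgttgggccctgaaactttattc
Dpt, chr1:164796413-164796662: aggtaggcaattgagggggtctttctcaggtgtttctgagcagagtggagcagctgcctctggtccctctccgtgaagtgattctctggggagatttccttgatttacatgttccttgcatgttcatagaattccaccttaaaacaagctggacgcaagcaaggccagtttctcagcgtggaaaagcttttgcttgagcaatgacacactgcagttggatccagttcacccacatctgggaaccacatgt
Bgn, chrX:73483351-73483600: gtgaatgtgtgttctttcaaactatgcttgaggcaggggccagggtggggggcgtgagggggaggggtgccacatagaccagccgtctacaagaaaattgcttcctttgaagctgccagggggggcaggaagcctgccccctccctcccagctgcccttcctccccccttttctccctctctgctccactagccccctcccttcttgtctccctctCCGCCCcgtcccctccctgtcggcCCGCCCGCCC

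The Bgn window was 64.4% G and C, with 3 GC boxes (GGGCGG, 2 of them overlapping), a motif found in 32.7% of 32851 RefSeq promoter windows of this length. The Ogn window was 42.0% G and C and that of Dpt 48.8%, against a median of 52.4%, and neither held a GC box. TATAAA occurred in the Ogn window as 2 overlapping matches on opposite strands, far from the start, and in 12.4% of all windows. The AP-1 element TGANTCA (6.7% of all windows) was in none of the 5. The E box CANNTG (66.2% of all windows) had 6 matches in Dpt, 3 in Ogn and 1 in Bgn. Of the windows not printed, that of Fmod, which fell, had 51.2% G and C and 1 E box, and Prelp, which did not pass, had 55.6% and no E box, both without TATAAA or GC box. A match is a run of letters and not a shown binding site.

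Genes whose products work with these proteins were read from lists chosen with earlier results known. Their counts stand beside 28.6% of all genes up and 28.6% down in sham tumour, 15.7% up and 10.6% down at 17 mM against sham, and 2.61% up and 0.368% down at 17 mM against healthy. Counts near these shares are no result about a list. Of 18 collagens and fibril partners 14 were tested. In sham tumours 5 of them rose and 4 fell (median 0.19), with Eln, elastin, at 1.34 and Col5a1 at 0.92, and with Col14a1 at -2.06, Tnxb at -1.98 and Fbln1, a fibulin of the matrix, at -1.97. At 17 mM 13 of the 14 rose against sham (median 1.37), led by Fbln1 at 3.06, Col14a1 at 2.88 and Tnxb, tenascin-X, at 2.84. Against healthy bladder 6 of 14 rose at 17 mM (median 1.53), among them Col5a2 at 2.31 and Eln at 2.12. Col1a1, at 2.42 (limma adjusted p = 0.0707), did not pass. The median of the 7 genes in that comparison was 0.41.

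Enzymes that act on the core proteins moved in both directions. Of 3 tested genes for propeptide removal, Bmp1, the protease that trims probiglycan, rose in sham tumours by 1.76 and Pcolce, an enhancer of procollagen cleavage, by 1.04. The related Pcolce2 fell to 3.78 and 3.13 from 7.65 and 7.07 (difference -3.90, SE 0.09, limma adjusted p = 0.0024) and stood at 7.87 at 17 mM (4.11 above sham, limma adjusted p = 0.0159). Of 20 tested genes for building the sugar chains, 10 rose and 3 fell in sham tumours (median 0.49). Chst11, a chondroitin sulfotransferase, rose by 1.98 and Chst1, a keratan sulfotransferase, by 1.77, while B4galt4, a galactosyltransferase, fell (-1.76). At 17 mM 2 of the 20 rose and 2 fell against sham (median 0.01). Chst15 rose by 1.34 and Chst1 fell by 1.20. Proteases that can cut small proteoglycans rose in 8 of 12 cases in sham tumours and fell in 3 (median 1.88), with Mmp13 at 6.14, Mmp9 at 4.82 and Mmp12 at 3.52. Against sham, 3 rose at 17 mM (Htra1 at 2.87, Mmp2 at 2.26, Adamts5 at 2.08) and 3 fell (Mmp13 at -2.04, Mmp9 at -1.15, Bmp1 at -0.68).

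Other proteoglycans and receptors followed no single direction. Of 16 tested large and cell-surface proteoglycan and hyaluronan genes, 6 rose and 6 fell in sham tumours. The hyaluronan receptor gene Cd44 rose by 3.12 and Vcan, versican, by 2.87, while Gpc4, a glypican of the cell surface, fell (-2.15). At 17 mM 5 rose and 2 fell against sham, with Gpc4 at 2.24, Gpc6 at 1.60 and Cd44 at -1.0. Vcan read 0.06 there and stayed 2.94 above healthy bladder (limma adjusted p = 0.0364). Of 15 growth factor and receptor genes whose products these proteins bind, 6 rose and 2 fell in sham tumours, led by Tgfb1 at 2.48, Met at 1.72 and P2rx7, a receptor of the biglycan response, at 1.64. At 17 mM Tgfb3 (1.10) and Tgfbr1 (0.59) rose, Met fell (-1.25), and Tgfb1 read -1.34 (limma adjusted p = 0.0616).

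The fibroblast counts in sham tumours were close to the shares over all genes. The mean over 10 markers was 7.07 and 6.59 log2 in healthy bladder and 7.00 and 6.23 in sham tumour, and 2 of 10 rose and 3 fell (median 0.14). Pdgfra, a general fibroblast receptor, read 5.34 and 5.25 in healthy bladder and 6.26 and 5.58 in sham tumour (difference 0.62, limma adjusted p = 0.0644). Tcf21, a fibroblast transcription factor, fell (-1.62, limma adjusted p = 0.0192) and Dpp4 fell (-1.30). Other markers were higher in the sham tumour of each experiment. Cd34 read 8.97 and 8.33 in healthy bladder and 9.53 and 9.26 in sham tumour. Col15a1 read 6.25 and 6.40 against 6.71 and 6.78. At 17 mM 6 of 10 fibroblast markers rose against sham (median 1.02), led by Tcf21 at 3.39. The smooth muscle list (8 of 8 up, median 2.31), the urothelial list (8 of 10 up, median 2.87) and the adipocyte list (2 of 2 up, median 1.68) rose beside the 7 genes at 17 mM, as did 4 of 4 liver markers (median 3.90). The liver mean was 4.18 on the sham tumour of experiment 1, 7.16 at 8.5 mM, 8.21 at 17 mM and 7.59 on the array labelled 24 h, against 5.43 and 5.25 in healthy bladder. The healthy means rest on Ttr (8.91 and 8.78). On the same arrays Alb read 4.57 and 3.85, Apoa1 4.23 and 3.97, and Serpina1c 3.99 and 4.42. Urothelial and mesothelial lists share Upk3b, and the fibroblast and collagen lists share Mfap5. Bmp1 is in both the propeptide and the protease list, and Kdr in both the receptor and the endothelial list. Proliferation markers (4 of 4 down, median -1.58) and leukocyte markers (3 of 7 down, median -0.55) went the other way at 17 mM. In sham tumours 4 of 4 proliferation markers (median 5.97) and 6 of 7 leukocyte markers (median 3.40) rose, while 8 of 8 smooth muscle, 9 of 10 urothelial and 2 of 2 adipocyte markers fell. The endothelial list read -0.30 by its median in sham tumour (1 up and 1 down of 6) and 0.72 at 17 mM (3 up), and 2 of 3 mesothelial markers fell and 1 rose in sham tumour. The part of these cells in the levels of the 7 genes was not tested.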

How the data were processed

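The deposited values are log2 RMA intensities of an Affymetrix mouse PM array (45077 probe sets, 9 arrays). RMA and Transcriptome Analysis Console (4.0.1.36) are named in the submitters' processing notes. The labels' protocols give 100 ng of total RNA per array from frozen bladder. No genome build was stated for the values. Precision is limited by how few arrays there are.

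The authors' log2 values differed in distribution between the experiments (0.329 log2 on average, against 0.022 within), so the experiment number was used as a block. It pairs healthy PBS with tumour PBS: the correlation of same-numbered deviations was 0.647. In all, 28898 probe sets named 1 gene, 551 several and 15588 none, and 40 were controls. Genes with a mean under 4.16 were left out.

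All 9 arrays entered a limma fit (version 3.58.1, R 4.3.3) with 7 group means and the block, leaving 1 residual degree of freedom beside 2.23 prior ones. The dose slope used the tumour arrays. With the block it rests on experiment 1 and has 2 residual degrees of freedom beside 2.32 prior ones. Calls are at a Benjamini-Hochberg adjusted p under 0.05 over all genes kept. The script was tested on simulated data. The members, lists and tests were chosen with earlier results of these data known. Named genes are all members, the 6 most like genes, the most like gene of each member, and up to 3 per list and comparison by size. Further list genes in the text (such as Eln, Col5a1, Col1a1, Gpc4 and Pdgfra) were chosen after their values were seen. The spread of 2 single arrays is the moderated SD times the square root of 2. Other software was Python 3.11.15 with pandas 2.3.3, numpy 2.4.6 and, for plots, matplotlib 3.10.9. Alternatives tried were dose by rank, leaving out arrays, no block, joint quantile normalization, a variance trend, averaged probe sets, other filters and a 2-fold minimum.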

Additional observations from a re-analysis of the deposited data

Results flagged for a closer look

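Dpt moved in opposite directions on the 2 treated healthy arrays, each set against the healthy PBS array of its experiment. It was 0.26 higher on the array labelled 24 h and read -0.31 at 7 d, a gap of 0.57 log2. Each of these differences lay within the spread of 2 single arrays (0.32). The opposite directions rest on the healthy PBS array of experiment 2: without it Dpt read 1.0 at 24 h and 0.43 at 7 d. The limma test of that gap did not pass (adjusted p = 0.373), and no gene passed it (0.0%, 2660 at an unadjusted p under 0.05, 1 array on each side).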

How the results depend on the processing

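Precision is set by the number of arrays: 1 residual degree of freedom (2 for the dose slope), and no replicate of any treated group. The tumour decreases of Dcn, Lum, Dpt, Ogn and Fmod kept their direction and their side of the threshold under every alternative with a test (Fmod is not tested once the lowest 50% is left out), and 3 called values did not (Fmod at 17 mM, and Bgn and Fmod for the array labelled 24 h against sham tumour). In all, 651 of the members' values under alternatives stayed as they were, 17 newly passed and 7 were lost. A further 65 without a test moved by about 1 residual SD or more, and no called value changed sign. With a PBS array left out, the size of the move is set by the residual SD itself. Some moves equal 1 SD, where rounding decides the label. For these untested values the counts of 651 and 65 therefore do not measure stability. The causes were not tested. Uncalled values did change sign with 1 PBS array left out: Bgn in the tumour (0.03), Prelp at 8.5 mM, Dpt and Ogn at 17 mM against healthy, Ogn at 24 h and Dpt at 7 d. With the block no test remains once a PBS array is left out. Then Lum ranged from -1.72 to -0.94 and Ogn from -2.96 to -2.43 in the tumour, and at 17 mM Lum from 2.58 to 3.36 and Fmod from 0.69 to 1.06. Without the replicate block, genes called numbered 3172 for tumour against healthy, 1217, 945 and 36 at 17, 8.5 and 1.7 mM, 590 for 17 mM against healthy, 126 and 15 for 24 h and 7 d against healthy, 1391 for 24 h against sham tumour and 891 for the slope, with the median of all genes at 17 mM moving from -0.05 to 0.17. It called 1 member for 17 mM against healthy (Lum) and 1 for the slope (Ogn). With a 2-fold minimum 3493, 1956 and 2192 genes remained for tumour, 17 mM and 24 h against sham. Joint quantile normalization called 3275 genes at 8.5 mM, 2201 (2 members) for 17 mM against healthy, 788 (1 member, Bgn) and 28 for 24 h and 7 d. It split the calls at 17 mM into 2157 up and 2248 down, against 1875 and 1272. For 17 mM against healthy, 577 genes passed with the lowest 50% left out, 684 with probe sets averaged, 202 with no filter and 732 (1 member, Bgn) with a variance trend, against 356. For 24 h against healthy the same settings except no filter gave 121, 96 and 198, against 0. Dose by rank called 4200 genes and 5 members, and leaving out arrays gave 0 to 1839 genes and 0 to 3 members.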
